A study of Mus musculus with 6 samples.

Results

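Striated muscle microRNAs (miRNAs) were examined in Neuro2A (N2A) cells, a mouse neuroblastoma line, by sequencing of small RNA. The members were every mouse-named entry of the deposited tables for 7 miRNAs, namely mmu-miR-1a, mmu-miR-133a, mmu-miR-133b, mmu-miR-206, mmu-miR-208a, mmu-miR-208b and mmu-miR-499, whatever the arm of the hairpin or the length variant. Only 3 of these names were listed, as 4 entries of the 1046 that remained after rows with identical values were merged. The entries were miR-499-5p, miR-499-3p, miR-1a-3p and miR-133a-3p, and the values of none of them repeated another row. The other 4 names had no entry. There were 3 si-NC libraries, from cells that received the siRNA labelled NC, taken here as the control, and 3 si-circCpsf6 libraries, from cells that received an siRNA directed against the circular RNA circCpsf6. Each siRNA was used at 100 nM. The question put to the data is whether silencing of circCpsf6 alters miRNA levels, and circCpsf6 itself was not analysed here. Nothing in the labels ties the replicates to separate cultures, so the p-values rest only on how far these libraries differ, and that spread may be technical.

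The muscle miRNAs, often called myomiRs, are made in skeletal and cardiac muscle under the control of myogenic transcription factors such as MyoD, SRF and MEF2. The miR-1 and miR-206 family promotes muscle differentiation, miR-133a and miR-133b act on myoblast growth and on SRF, and miR-208a, miR-208b and miR-499 are encoded inside myosin heavy chain genes and are transcribed with them. miR-499, with miR-208b, is best known for favouring the slow muscle fibre program. In a mature miRNA, bases 2 to 8 form the seed, the stretch that pairs with target mRNAs.

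The mature sequences of miR-499 and miR-208 are shown because miR-499-5p carried most of the muscle miRNA signal here while its close relatives had no entry. They are from RefSeq (GRCm38.p6), whose table matched 2 of the 4 entries by name, and are written 5′ to 3′ with the seed in capitals.
mmu-miR-499-5p: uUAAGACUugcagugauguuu
mmu-miR-208a-3p: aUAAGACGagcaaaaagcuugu
mmu-miR-208b-3p: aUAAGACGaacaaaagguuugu
mmu-miR-499-3p: gAACAUCAcagcaagucugugcu
Bases 2 to 7 were the same in miR-499-5p and in both miR-208 miRNAs, and the seeds differed only at base 8 (U8G, counted from the 5′ end, miR-499-5p first). The sequences diverged past the seed. Over the first 21 bases, seed included, miR-499-5p matched miR-208a-3p at 12 positions and miR-208b-3p at 10. The miR-208 miRNAs matched each other at 18. These counts include the shared bases 2 to 7. Among the 1679 mature mouse miRNAs of the RefSeq table, no other shared the whole seed of miR-499-5p, and miR-208a-3p and miR-208b-3p were the only others with its bases 2 to 7. The miR-499 hairpin lies in an intron of Myh7b, a myosin heavy chain gene, on the plus strand at chr2:155622880-155622958 (GRCm38), with miR-499-5p at chr2:155622893-155622913 and miR-499-3p at chr2:155622929-155622951. The hairpins without an entry lie in an intron of Myh6 (miR-208a, minus strand, chr14:54949060-54949142) and in an intron of Myh7 (miR-208b, minus strand, chr14:54975700-54975776), the main myosin heavy chain genes of the heart.

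The libraries themselves differed. Their totals, summed over all 1080 rows before merging, ran from 2570449 to 3268351 normalized reads. Being normalized, these totals say nothing of sequencing depth. Only 558 of 1046 entries were above 0 in si-NC replicate 3, against 717 to 849 in the other libraries, and 14 of its entries had a value above 0 but under 19, against 168 to 299. Of the muscle miRNAs, miR-133a-3p, at 10 there, was among those 14, so results are also given without that library where it moves them. Since the depth is unknown, no counting interval is given.

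miR-499-5p had close means in both groups, and miR-1a-3p and miR-133a-3p had lower means under si-circCpsf6, but no muscle miRNA entry passed the limma test, which was run on log2(value + 1). That test draws the variance of each entry toward a trend with level over all tested entries. Its SEs, intervals and p-values therefore do not rest on an entry's own spread alone. With Benjamini-Hochberg adjustment over the 916 entries tested, 0 of 4 members had an adjusted p under 0.05, and the same held for all entries (0%). At an unadjusted p under 0.05 there were 0 of 4 members, against 57 of all entries (6.22%). The 3 libraries of one group all lay above the 3 of the other for 0 of 4 members, against 107 of all entries (11.7%). Over the 4 members the median change was -0.081 on the log2 scale, against 0.086 over all tested entries. Over the 3 members above 0 in every library it was -0.21, the value of miR-133a-3p itself, and it turned to 0.12 without si-NC replicate 2 and likewise to 0.12 without si-circCpsf6 replicate 2. In the authors' deposited table the fold of the group means was 1.05 for miR-499-5p, 0.64 for miR-1a-3p and 0.85 for miR-133a-3p, with unadjusted p-values of 0.765, 0.323 and 0.709. There the p-value of miR-499-3p was 0.218.

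mmu-miR-499-5p was the most abundant muscle miRNA in N2A cells and varied little across the libraries. It was listed at 483, 534 and 444 normalized reads in replicates 1, 2 and 3 of si-NC and at 632, 409 and 490 in replicates 1, 2 and 3 of si-circCpsf6. Both the highest and the lowest value belonged to si-circCpsf6, so the si-NC range lay inside the si-circCpsf6 range. The means were 487 ± 45.1 under si-NC and 510 ± 113 under si-circCpsf6 (SD, n = 3 libraries; the same holds for the means that follow). The log2 change, si-circCpsf6 minus si-NC on the log2(value + 1) scale, was 0.048 (SE 0.31, 95% interval -0.66 to 0.76, limma adjusted p = 0.992). That interval leaves room for a change of either sign. The sign also turned without si-NC replicate 3 (-0.016), without si-circCpsf6 replicate 1 (-0.12) and with the libraries rescaled to equal totals (-0.035). From its lowest to its highest library miR-499-5p varied 1.55-fold, and the SD of its log2 values over the 6 libraries was 0.22. Entries of similar level varied more on the whole. Among the 116 tested entries with means from 200 to 1000, the median of that SD was 0.59, and 4 had a smaller one than miR-499-5p.

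**Figure D1:**
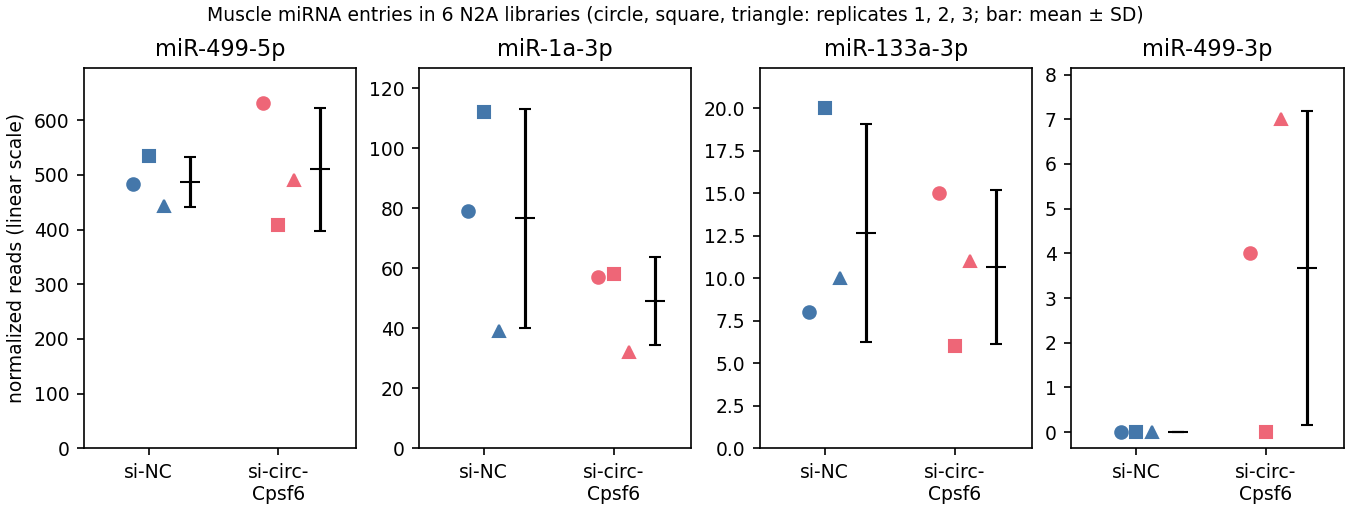
Normalized reads (vertical axes, linear, a separate scale for each entry) of the 4 muscle miRNA entries in each library, with si-NC in blue and si-circCpsf6 in red; circles, squares and triangles are replicates 1, 2 and 3, and the black bars are the mean ± SD of 3 libraries. The groups overlap for all 4 entries, with miR-499-5p between 409 and 632 and miR-499-3p above 0 in only 2 libraries.

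The opposite arm of the same hairpin, mmu-miR-499-3p, was barely present. Its entry (R-1, a suffix read here as a length variant) was listed at 0 in all 3 si-NC libraries and at 4, 0 and 7 in replicates 1, 2 and 3 of si-circCpsf6. These are among the lowest values above 0 that the libraries hold, and si-circCpsf6 replicate 2 was at 0 like the si-NC libraries. In si-NC replicate 3 only 14 entries had a value above 0 but under 19, so its 0 here says little. The entry did not pass the test (limma adjusted p = 0.735). With every si-NC library at 0, its fitted log2 change depends on the pseudocount and gives no size of a difference, so no fold is given. The 3p arm made up 0.366% of the summed mean of both arms. Across the 170 mouse hairpins with both arms listed under the same name and a summed mean of 100 or more, the median of the lesser arm was 5.23%, and 28 hairpins had a smaller share than miR-499.

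mmu-miR-1a-3p, the classic miRNA of heart and skeletal muscle, came next. It was listed at 79, 112 and 39 in replicates 1, 2 and 3 of si-NC and at 57, 58 and 32 in replicates 1, 2 and 3 of si-circCpsf6. Replicate 3 was the lowest of each group, and si-NC replicate 3 lay between the si-circCpsf6 values, so the groups overlapped. The means were 76.7 ± 36.6 under si-NC and 49.0 ± 14.7 under si-circCpsf6, or 0.639 of the si-NC mean. The log2 change was -0.56 (SE 0.62, 95% interval -1.97 to 0.86, limma adjusted p = 0.904), which does not exceed the spread between libraries. The size of this difference rested on single libraries: it was -0.98 without si-NC replicate 3, where the remaining si-NC libraries lie above every si-circCpsf6 library, -0.23 without si-NC replicate 2 and -0.28 without si-circCpsf6 replicate 3. The adjusted p over the alternatives ran from 0.372 to 0.979. miR-1b-3p, a close relative of miR-1a outside the 7 names, was listed at 4 in replicate 2 of si-NC, at 6 in replicate 1 of si-circCpsf6 and at 0 in the other 4 libraries.

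mmu-miR-133a-3p, which is cut from the same primary transcripts as miR-1a, was lower still. The entry (R+1, again read as a length variant) was listed at 8, 20 and 10 in replicates 1, 2 and 3 of si-NC and at 15, 6 and 11 in replicates 1, 2 and 3 of si-circCpsf6. The highest value was si-NC replicate 2 and the lowest si-circCpsf6 replicate 2, whereas the other si-NC values, 8 and 10, lay below the other si-circCpsf6 values, 15 and 11, so the groups overlapped. The means were 12.7 ± 6.43 and 10.7 ± 4.51, and the log2 change was -0.21 (SE 0.85, 95% interval -2.16 to 1.75, limma adjusted p = 0.992). Its sign turned without si-NC replicate 2 (0.15) and without si-circCpsf6 replicate 2 (0.12). It was -0.46 without si-NC replicate 1, -0.32 without si-NC replicate 3 and -0.48 without si-circCpsf6 replicate 1. miR-133a-3p and miR-133b-3p are nearly identical, and how reads were assigned between such miRNAs is not given in the sources used here, so the split between the pair is uncertain. A copy of each hairpin lies on chromosome 2 (GRCm38, plus strand), miR-1a at chr2:180389048-180389124 and miR-133a at chr2:180398379-180398482, with no annotated host gene in GENCODE M21. The values of miR-1a-3p were between 2.91 and 9.88 times those of miR-133a-3p, depending on the library. That ratio is unsteady, with miR-133a-3p at only 6 to 20. Which copy of each hairpin the reads came from was not tested.

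miR-206 and miR-133b, the skeletal muscle pair of chromosome 1, had no entry in these tables. Their hairpins lie in exons of the long noncoding RNA gene Gm28653 on the plus strand, at chr1:20679010-20679082 and chr1:20682769-20682887 (GRCm38). The lowest value that would have earned a miRNA an entry is not given in the sources used here. An unlisted name therefore sets no level.

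**Figure D2:**
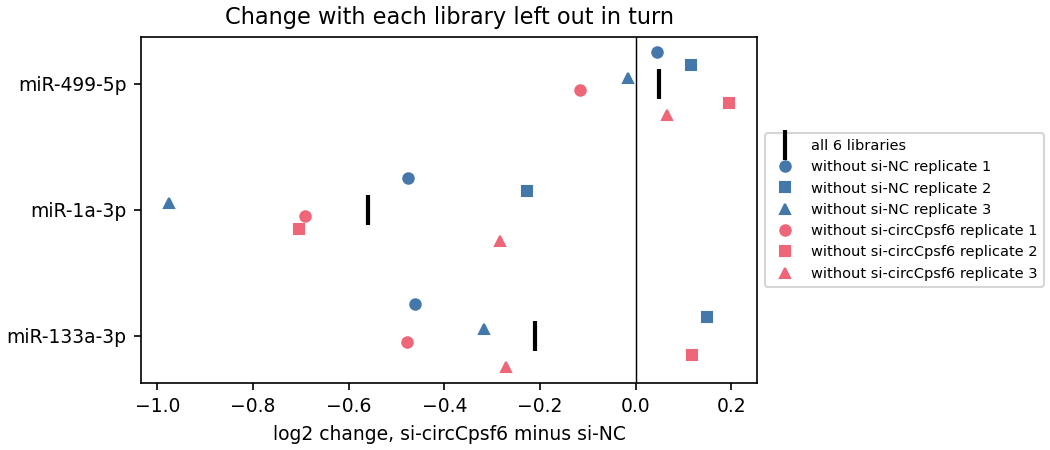
Log2 change (horizontal axis, si-circCpsf6 minus si-NC) of the 3 muscle miRNA entries above 0 in every library; the black line is the value with all 6 libraries and each symbol the value with the library in the legend left out. The values of miR-499-5p lie between -0.12 and 0.20, those of miR-1a-3p between -0.98 and -0.23, and those of miR-133a-3p between -0.48 and 0.15.

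In every library the order of the members was miR-499-5p, miR-1a-3p, miR-133a-3p, miR-499-3p. The ranges over the 6 libraries were 409 to 632, 32 to 112, 6 to 20 and 0 to 7, so only the last neighbours in that order overlapped. Reads of small RNA libraries are not divided by length, and adapter ligation favours some sequences over others, so the order is one of normalized reads. miR-499-5p held between 80.2% and 90.7% of the summed members in each library. Its ratio to miR-1a-3p was 7.42 ± 3.50 under si-NC and 11.2 ± 4.13 under si-circCpsf6, with values from 4.77 to 11.4 and from 7.05 to 15.3 that overlapped. The members together summed to 576 ± 86.7 normalized reads in si-NC and 574 ± 121 under si-circCpsf6, or 0.0202 ± 0.00221% and 0.0193 ± 0.00510% of the library totals.

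Against the rest of the profile the muscle miRNAs ran from well above the middle to near the lower end. miR-499-5p ranked 248 of 1046 entries by mean value, miR-1a-3p ranked 427, miR-133a-3p ranked 601 and miR-499-3p ranked 825. The median of the mouse-named entry means was 72.2, and miR-499-5p lay above it with a mean of 498.7 over the 6 libraries. All 10 neuronal miRNAs of a marker list had entries. Markers of other cell types had entries too, so being listed does not check the labelled cell type. The most abundant of them were miR-7a-5p, with a mean of 218283, miR-218-5p with 20672 and miR-137-3p with 9628. The muscle miRNA miR-499-5p lay above miR-7a-5p, miR-218-5p, miR-137-3p, miR-138-5p and miR-128-3p in 0 of 6 libraries. It lay above miR-153-3p in 3 of 6, miR-219a-5p in 5 of 6 and miR-129-2-3p in 6 of 6. It exceeded miR-9-5p, a miRNA of neural progenitors listed between 83 and 180, in 6 of 6 libraries. miR-124-3p, the best known neuronal miRNA, was listed at 183, 203 and 572 in replicates 1, 2 and 3 of si-NC and at 412, 279 and 711 in replicates 1, 2 and 3 of si-circCpsf6. miR-499-5p was the higher of this pair in 4 of 6 libraries, the exceptions being replicate 3 of each group.

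**Figure D3:**
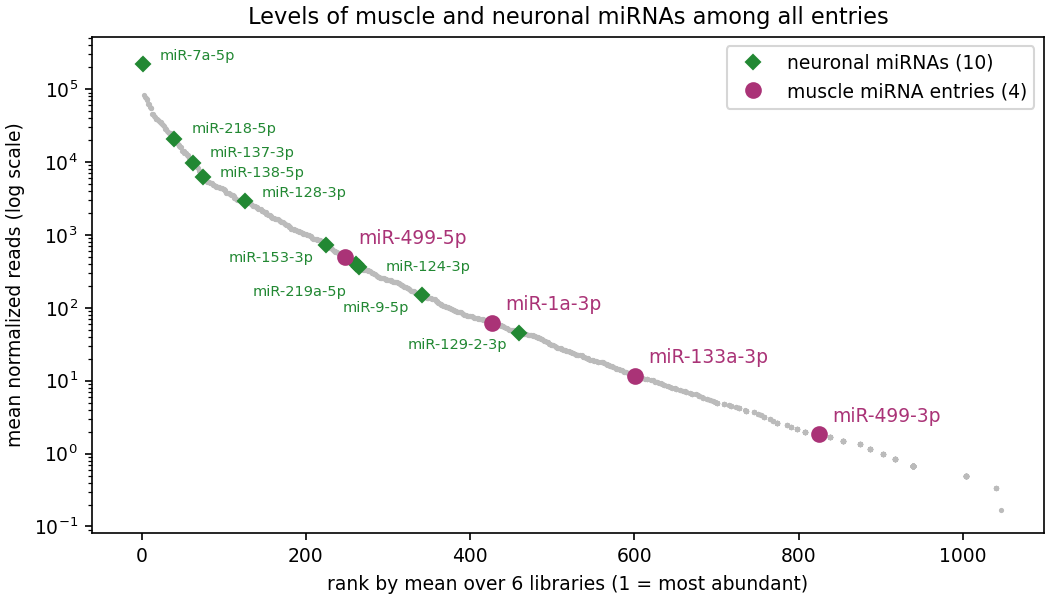
Mean normalized reads over 6 libraries (vertical axis, log scale) against rank (horizontal axis) for all 1046 entries in grey, with the 10 neuronal miRNAs as green diamonds and the 4 muscle miRNA entries as purple circles. miR-499-5p (mean 498.7) sits between miR-153-3p (729) and miR-124-3p (393), while miR-1a-3p (62.8) and miR-133a-3p (11.7) lie further down.

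Markers of other cell types had levels on both sides of these. The smooth muscle miRNAs miR-143 and miR-145a summed to between 64280 and 101525 under si-NC and between 76617 and 100984 under si-circCpsf6, and the endothelial miR-126a-3p was listed between 2931 and 4117 and between 2869 and 4301. The erythroid miR-451a and miR-144 were at 0 in 4 of 6 libraries each and together reached at most 17 under si-NC and 6 under si-circCpsf6. Liver miR-122 was listed at 5 in si-NC replicate 2 and at 0 in the other 5 libraries. Of the haematopoietic markers only miR-150-5p had an entry, at 26, 29 and 27 under si-NC and at 28, 20 and 7 under si-circCpsf6, whereas miR-142a, miR-155 and miR-223 had none. Of 4 pancreatic and neuroendocrine markers, miR-375-3p alone was listed, between 96 and 229 under si-NC and between 220 and 313 under si-circCpsf6. Whether RNA of other cells had a part in the muscle miRNA values was not tested.

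**Figure D4:**
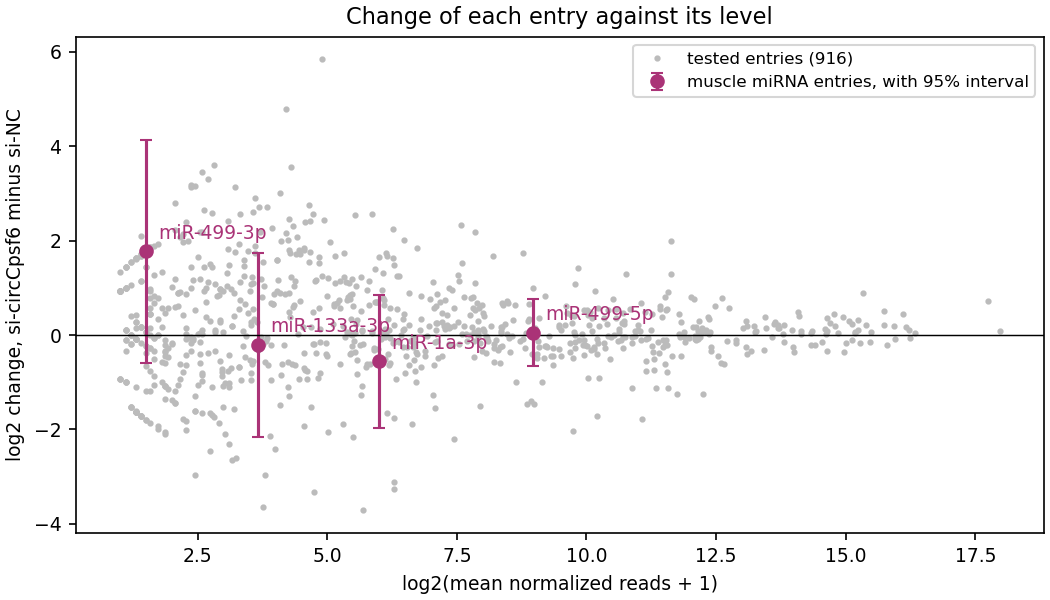
Log2 change (vertical axis, si-circCpsf6 minus si-NC) against level (horizontal axis, log2 of the mean normalized reads plus 1) for the 916 tested entries in grey and the 4 muscle miRNA entries in purple with 95% intervals. Each of the 4 intervals crosses 0, and they widen from miR-499-5p (-0.66 to 0.76) to miR-1a-3p (-1.97 to 0.86) and miR-133a-3p (-2.16 to 1.75). The widths also follow the variance trend with level that limma fits. The SD of the log2 values over the 6 libraries was 0.65 for miR-1a-3p and 0.57 for miR-133a-3p. The position of miR-499-3p, at 0 in every si-NC library, depends on the pseudocount and shows no size of a difference.

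Other miRNAs known from muscle differentiation or muscle stem cells, but made in many tissues, were mostly present. Of a list of 20, 17 had an entry and 15 were tested, of which 7 had higher and 8 lower log2 values under si-circCpsf6 and the median change was -0.046 on the log2 scale. None of the 15 passed the limma test. Highest of these was miR-27b-3p, known to repress Pax3 in muscle stem cells, at 255446 ± 96566 under si-NC and 258378 ± 15250 under si-circCpsf6. miR-26a-5p, which represses Ezh2 during myogenesis, was at 34817 ± 3971 and 31113 ± 2809. miR-24-3p, which increases as myoblasts differentiate, was at 26776 ± 8575 and 30213 ± 7006. For 2 of the 15 the si-circCpsf6 libraries all lay above the si-NC libraries, a share near the 11.7% of all tested entries whose groups lay apart, so nothing is read from it. The pair was miR-322-5p, a miRNA of cell cycle exit, at 4700, 5161 and 6858 under si-NC and 7977, 9441 and 7282 under si-circCpsf6 (limma adjusted p = 0.735), and miR-214-3p, at 651, 797 and 201 under si-NC and 1131, 1482 and 1216 under si-circCpsf6 (limma adjusted p = 0.553). miR-486b-5p, abundant in muscle and red cells, was listed at 66, 121 and 54 under si-NC and at 51, 106 and 56 under si-circCpsf6. That level was near miR-1a-3p, and its groups overlapped as well.

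The pattern of miR-499-5p over the 6 libraries was most like that of miR-330-5p among 518 other mouse-named entries with a mean of 10 or more. Likeness was measured as the root mean square difference of log2(value + 1) after each entry's own mean was subtracted, and was 0.13 for miR-330-5p, against a median of 0.59. miR-330-5p was listed at 419, 489 and 394 under si-NC and at 484, 290 and 432 under si-circCpsf6, so that si-circCpsf6 replicate 2 was the lowest library for both miRNAs. The next were miR-505-3p (0.15), miR-181a-5p (0.18), a variant of miR-1187 (0.18) and miR-143-5p (0.19). All share the same 6 libraries, and since miR-499-5p varied little, entries that varied little are near it by construction.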

How the data were processed

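Small RNA of 6 N2A samples was sequenced, and per the labels' protocols cells grew with 10% serum and libraries were made from 1 ug of Trizol RNA with the TruSeq small RNA kit. Groups and replicate numbers came from the sample titles. The values used were the authors' normalized read numbers, treated as a score because they are rounded and the normalization method is not stated in the labels or headers. The authors' deposited fold (a ratio), its log2 and its p-value were used only where credited, and their deposited si-NC mean score was not needed. The build was mm9, per the submitters' processing notes; positions given are GRCm38 (GENCODE M21 and RefSeq), placed by name. For the aligner and the miRNA release, the sources used here give no name.

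Rows repeating another's values were merged (34 of 1080) where at least 3 libraries were above 0 or the names matched apart from the suffix. Entries with a mean of 1 or more were tested by limma 3.58.1 (R 4.3.3, trended variance) on log2(value + 1). The fit was also run on simulated data. These were independent log2 values with larger changes than the members had, so that run does not show how small changes or low entries are treated. A log2 change on that scale understates changes of low entries. The named miRNAs are all members, the 5 most alike to the leading member and up to 3 per list. Named after their values were seen were the neuronal miRNAs beyond the 3 most abundant, miR-322, miR-214, miR-486b, miR-1b and the markers at or near 0. The members and lists were chosen with earlier results of these data known. Alternatives were other pseudocounts, filters and scalings, a replicate block, robust variance, unmerged rows, mouse names alone and each library left out. Python 3.11.15, numpy 2.4.6, pandas 2.3.3 and matplotlib 3.10.9 were used.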

Additional observations from a re-analysis of the deposited data

How the results depend on the processing

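No muscle miRNA entry passed under any of the alternatives run, and the lowest adjusted p was 0.372 (miR-1a-3p without si-NC replicate 3). With a library left out, the log2 change ran from -0.12 to 0.20 for miR-499-5p, from -0.98 to -0.23 for miR-1a-3p and from -0.48 to 0.15 for miR-133a-3p. Rescaling to equal totals gave -0.035 for miR-499-5p, against 0.048, and moved the median of all entries by -0.081. The fitted value of miR-499-3p, whose si-NC libraries are all at 0, follows the pseudocount (3.84 with 0.1, 0.70 with 5) and is no size of a difference, and the entry had too low a mean to be tested without si-circCpsf6 replicate 3 or with a minimum mean of 10. Over the whole table the entries that passed numbered 0 to 4 with a library left out, the 4 without si-NC replicate 3. A replicate block cannot alter the changes, since every replicate number has a library in both groups (0.048 for miR-499-5p, -0.56 for miR-1a-3p, -0.21 for miR-133a-3p). It can alter the p-values. With it the limma adjusted p was 0.640 for miR-1a-3p, against 0.904, and 0.442 for miR-499-3p, against 0.735. For miR-499-5p it was 0.949 and for miR-133a-3p 0.938, against 0.992 for each. With the block 0 entries passed and 87 had an unadjusted p under 0.05, against 57 without it. Deviations of same-numbered libraries correlated at 0.047, 0.48 and 0.40 for replicates 1, 2 and 3, against -0.44 to 0.18 for libraries of different number. The values of replicates 2 and 3 were thus the highest of all. Deviations were taken from the group mean and so sum to 0 within each group. The values for libraries of different number are therefore no independent background. The labels give the numbers no meaning, so the main test did not take them as pairs. The unknown depth limits most the entries with values of 20 or less, miR-133a-3p and miR-499-3p.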
